A study of Homo sapiens with 4 samples.

Results

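The guide strands of the miR-23/27/24 clusters were followed in HepG2, an established human hepatoma cell line. The members were taken by their array names, hsa-miR-23a, hsa-miR-23b, hsa-miR-24, hsa-miR-27a and hsa-miR-27b without an asterisk, and are 5 of the 851 human miRNAs on the array. The cells received berberine chloride, a plant alkaloid, at 40 µM, or dimethyl sulfoxide at 0.08% as the solvent control, and total RNA was collected at 2 h or at 4 h. There was 1 Agilent 1-colour miRNA array for each of the 4 groups (control and berberine at each time), and the 4 shared a slide and a scan. Without replicates, how much separate cultures vary is not known, and all errors below, other than those of the limma fit, are those that the Feature Extraction software gives to a signal on 1 array. A 95% range is built from these errors, and a difference is called beyond the error where its 95% range leaves out 0.

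A miRNA is cut from a hairpin precursor, and its guide strand is held by an Argonaute protein and leads it to messenger RNAs that pair with the seed, which is bases 2 to 8 of the miRNA. The miR-23/27/24 hairpins lie side by side in paralogous clusters, so that several miRNAs with different seeds can come from 1 transcript. As background, miR-23 is known for the repression of glutaminase, and miR-27 for the control of lipid metabolism and adipocyte differentiation. miR-24 is known for the repression of cell cycle genes and of the DNA damage histone H2AX.

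All 5 members matched a mature sequence of RefSeq (build GRCh38.p14), where they carry the ending -3p. They come from 6 hairpins and share 3 seeds. The sequences are shown because the paralogs differ so little, with the seed in capitals, from 5′ to 3′:
hsa-miR-23a: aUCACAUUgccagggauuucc
hsa-miR-23b: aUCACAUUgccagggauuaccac
hsa-miR-27a: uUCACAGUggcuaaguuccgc
hsa-miR-27b: uUCACAGUggcuaaguucugc
hsa-miR-24: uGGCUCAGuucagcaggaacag

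Counted from the 5′ end, hsa-miR-23a and hsa-miR-23b differed at 1 of 21 shared bases (U19A), and hsa-miR-23b is 2 bases longer. hsa-miR-27a and hsa-miR-27b differed at 1 of 21 bases (C19U). Both differences lie outside the seed. The array has probes of its own for each paralog, but how far a probe also binds the other paralog was not tested. The strand of hsa-miR-24 is the same from both of its hairpins, MIR24-1 and MIR24-2, so its signal cannot be assigned to a cluster.

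On chromosome 19, MIR23A, MIR27A and MIR24-2 lie within 373 bases of the minus strand, inside the interval of the long non-coding host gene MIR23AHG. The mature strands are at chr19:13836595-13836615 for hsa-miR-23a, chr19:13836447-13836467 for hsa-miR-27a and chr19:13836289-13836310 for hsa-miR-24. On chromosome 9, MIR23B, MIR27B and MIR24-1 lie within 881 bases of the plus strand, inside the interval of the protein-coding gene AOPEP, which encodes an aminopeptidase. There the mature strands are at chr9:95085265-95085287 for hsa-miR-23b, chr9:95085505-95085525 for hsa-miR-27b and chr9:95086064-95086085 for hsa-miR-24.

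All 5 members were detected on all 4 arrays, among 197 human miRNAs that were. Each was read by 2 probes with 8 spots each, both probes passed the detection limit on every array, and 320 of the 320 spots over all arrays were well above background with none saturated. The total signal of hsa-miR-23a was 148 ± 12.0 (error of Feature Extraction) with the control and 96.9 ± 8.05 with berberine at 2 h, and 136 ± 11.0 and 220.5 ± 17.6 at 4 h. Its paralog hsa-miR-23b gave 547 ± 43.8 and 362 ± 28.9 at 2 h, and 500.4 ± 40.0 and 781 ± 62.0 at 4 h. On both, the berberine array was the lowest of the 4 at 2 h and the highest of the 4 at 4 h.
The total signal of hsa-miR-27a was 82.8 ± 6.58 (control) and 56.3 ± 4.84 (berberine) at 2 h, and 65.8 ± 5.44 and 112 ± 8.76 at 4 h. For hsa-miR-27b it was 586 ± 43.2 and 390.4 ± 28.7 at 2 h, and 502 ± 37.0 and 791 ± 58.2 at 4 h. For hsa-miR-24, whose signal adds the output of both clusters, it was 500.4 ± 35.5 and 332 ± 23.6 at 2 h, and 416 ± 29.6 and 632 ± 44.8 at 4 h. The order of the arrays was thus the same for the 5 members, with berberine at 2 h lowest, then the control at 4 h, the control at 2 h and berberine at 4 h. The levels of the members were not set against each other, since each probe has its own brightness.

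The arrays themselves ran in this order. The 75th percentile of the 197 shared miRNAs was 169 with berberine at 2 h, 225 with the control at 4 h, 243 with the control at 2 h and 297 with berberine at 4 h. In unscaled signals, berberine over control had a median log2 ratio of -0.59 for the members and -0.55 for all miRNAs detected on both arrays at 2 h. At 4 h this median was 0.66 for the members and 0.51 for all. Signals were therefore divided by the 75th percentile of their array and taken on the log2 scale. The scaling left the median ratio of all miRNAs at -0.020 for 2 h and 0.11 for 4 h.

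**Figure D1:**
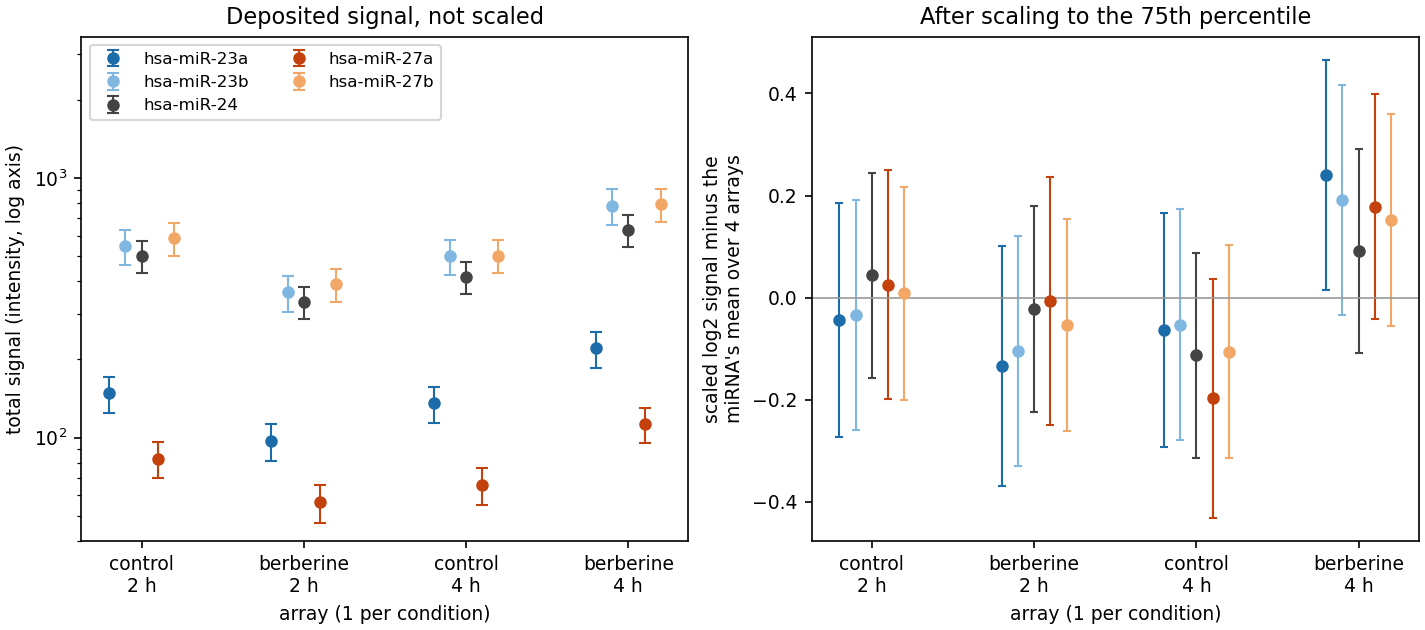
The left panel plots the deposited total signal of each member (intensity, log axis) on the 4 arrays, and the right panel the scaled log2 signal minus the mean of that miRNA over the arrays. Points are single arrays, and bars are 95% ranges from the errors of Feature Extraction. On the left all 5 members follow the brightness of the arrays, and on the right the bars of most arrays cross 0, with berberine at 4 h highest for every member.

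After scaling, berberine at 4 h remained the highest array for 5 of the 5 members. The lowest was berberine at 2 h for hsa-miR-23a and hsa-miR-23b, and the control at 4 h for hsa-miR-24, hsa-miR-27a and hsa-miR-27b. This order turned with the scaling, since with scaling to the median berberine at 2 h was lowest for 5 of the 5. With the 75th percentile that also counts undetected miRNAs berberine at 4 h was highest for 0. On the berberine array at 2 h that percentile falls on the 0.1 written for undetected miRNAs, so this setting cannot inform on the order. Berberine at 4 h was highest for 4 members with normexp and for 3 with the mean of all spots. Of the 15 differences between arrays that were neighbours in these orders, 0 lay beyond the error, with sizes of 0.019 to 0.28 on the log2 scale. The distance from the highest to the lowest array was 0.20 for hsa-miR-24 to 0.38 for hsa-miR-27a and lay beyond the error for 2 of the 5. Both counts are descriptions with no test, since neighbours and extremes were picked by their values.

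At 2 h, the ratio of berberine over control of every member was close to that of the array as a whole. The log2 ratio of hsa-miR-23a was -0.089 (standard error (SE) 0.17), or 0.940-fold, and that of hsa-miR-23b was -0.070 (SE 0.16), or 0.953-fold. It was -0.066 (SE 0.14) for hsa-miR-24, -0.031 (SE 0.17) for hsa-miR-27a and -0.062 (SE 0.15) for hsa-miR-27b. All 5 lay between -0.089 and -0.031, and 0 of the 5 lay beyond the error. The 95% ranges reached from -0.42 for hsa-miR-23a to 0.30 for hsa-miR-27a, so a change of 2-fold was outside the range of each member. Of all 197 miRNAs compared, 1.02% were past 2-fold in either direction, 7.11% were higher beyond the error, 2.03% were lower, and 42.1% had a ratio above 0. The sign of these small ratios depended on the processing, and with a normexp background correction the median of the members at 2 h was 0.014.

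At 4 h, all 5 members had ratios above 0 with this scaling. The log2 ratio was highest for hsa-miR-27a at 0.38 (SE 0.16), or 1.30-fold, followed by hsa-miR-23a at 0.30 (SE 0.16), or 1.23-fold. It was 0.26 (SE 0.15) for hsa-miR-27b, 0.24 (SE 0.16) for hsa-miR-23b and 0.20 (SE 0.14) for hsa-miR-24. Of the 5, hsa-miR-27a alone lay beyond the error, with a range of 0.054 to 0.70, and 0 of the 5 were past 2-fold. Of the 218 miRNAs compared at 4 h, 69.7% had a ratio above 0, 8.72% were higher beyond the error, 2.75% were lower, and 0.917% were past 2-fold.
The median of the members was 0.26 at 4 h, against 0.11 over the 218 miRNAs and 0.12 over the 98 of the shared miRNAs with a mean signal above the median. Of these 98, 79 had a ratio above 0. The middle 95% of their ratios ran from -0.27 to 0.32, and hsa-miR-27a alone of the members lay outside it. From the top of the 218, hsa-miR-27a ranked 27, hsa-miR-23a 35, hsa-miR-27b 47, hsa-miR-23b 48 and hsa-miR-24 61. The distance of the members' median from that of the 197 shared miRNAs was 0.15 and did not depend on a constant scaling factor, whereas the ratios against 0 did. With scaling to the median of the arrays, the ratios at 4 h were 0.033 for hsa-miR-24 to 0.20 for hsa-miR-27a, and with a 75th percentile that also counts undetected miRNAs all 5 were below 0. The call of hsa-miR-27a depended on the processing. Against the SE of 0.16 it was no longer beyond the error at 0.20 with scaling to the median, 0.22 with only miRNAs above the median signal, 0.16 with quantile normalization, 0.23 with the mean of all spots or 0.28 with the brightest probe. Its rank also changed, as normexp gave it -0.029, the lowest of the 5 members, and quantile normalization gave it 0.16 against 0.18 for hsa-miR-23a. For hsa-miR-24 the mean of all spots gave -0.032.

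**Figure D2:**
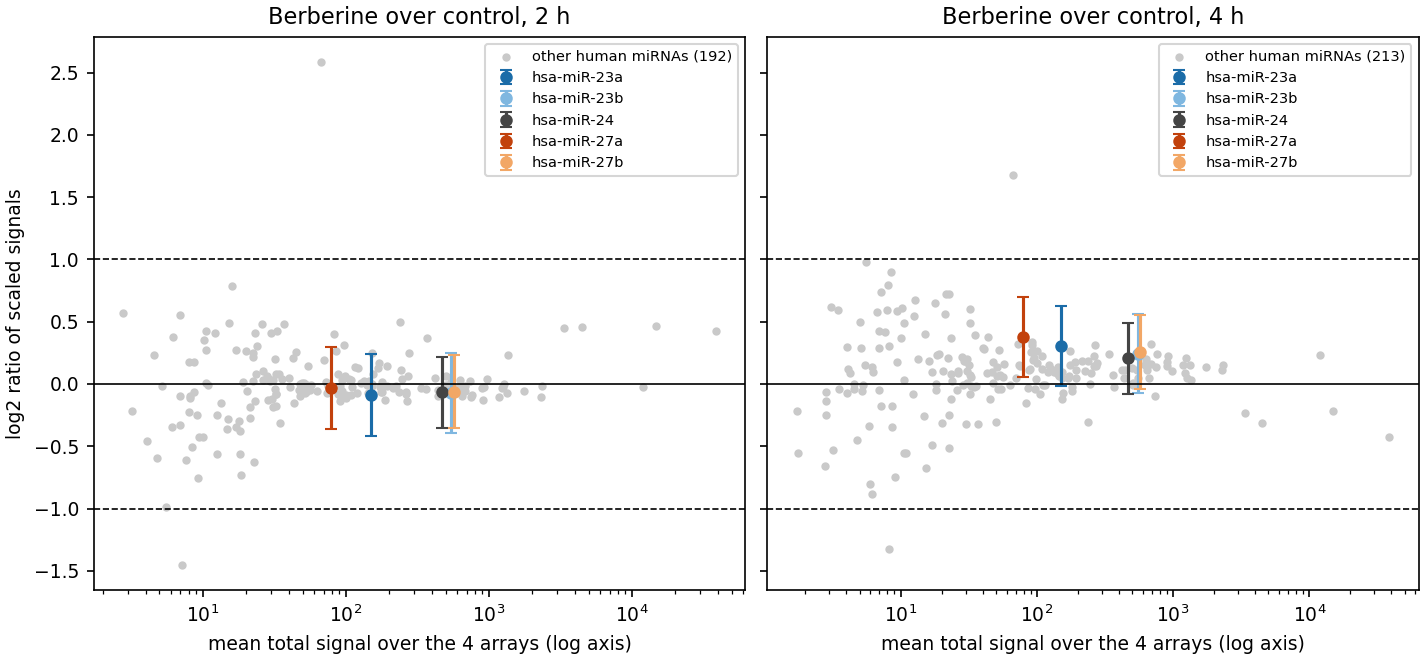
Each panel plots the log2 ratio of scaled signals, berberine over control, against the mean total signal over the arrays (log axis), with the members in colour, bars that are 95% ranges and other human miRNAs in grey. Dashed lines mark 2-fold. The members span -0.089 to -0.031 in the 2 h panel and 0.20 to 0.38 in the 4 h panel, among grey points of like brightness.

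The 2 probes of each member gave like ratios. The largest distance between the 2 probes of a member was 0.10 on the log2 scale, for hsa-miR-27a at 2 h, where the first probe gave 0.040 (SE 0.25) and the second -0.061 (SE 0.21). This first probe was the 1 of 10 probes above 0 at 2 h. At 4 h, 10 of the 10 probes were above 0, from 0.19 for the first probe of hsa-miR-24 to 0.38 for the second probe of hsa-miR-27a.
Within an array, the spots of most probes varied less than the error that the software assigns. The coefficient of variation over the spots of a probe, without 38 of the 320 spots marked as outliers, had a median of 3.75% and a maximum of 11.2%, against errors of 7.08% to 8.60% of the total signal. Spots were then compared between arrays after scaling, again without those marked as outliers, which left 4 to 8 spots of a probe on an array. At 4 h, all berberine spots kept were brighter than all control spots kept for 8 of the 10 probes, the exceptions being 1 probe each of hsa-miR-24 and hsa-miR-27b. Over all 385 human probes detected on both arrays, dim and bright, this was so for 24.7%, and the reverse for 5.71%. Shares over probes of like brightness were not taken, here or below, so the part of brightness in these counts was not tested. At 2 h the berberine spots kept were all below the control spots kept for 3 of the 10 probes, 1 of hsa-miR-23b (7 against 4 spots) and both of hsa-miR-24 (8 against 7 and 5 against 8), against 4.75% of 358 probes, and higher for 0 of the 10 against 12.0%. Between the control arrays, all spots kept at 4 h were below those at 2 h for 2 of the 10 probes, 1 of hsa-miR-24 and 1 of hsa-miR-27a, where 12.9% of 388 probes were lower in this way and 1.80% higher. Spots of 1 array share 1 RNA sample and 1 scaling factor, so in this separation array and treatment cannot be told apart.

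**Figure D3:**
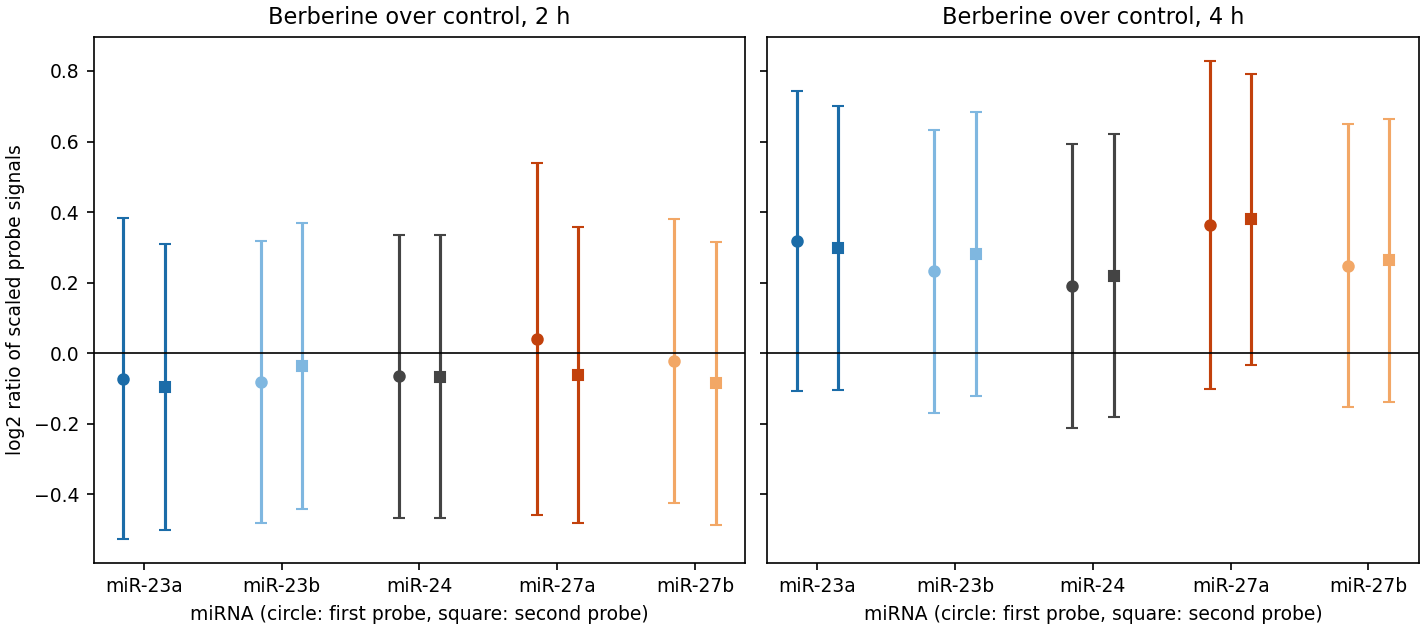
Log2 ratios of scaled probe signals, berberine over control, are plotted for the first (circle) and second (square) probe of each member, with bars that are 95% ranges. At 2 h 9 of the 10 points lie below 0, and at 4 h 10 of the 10 lie above 0, while all bars include 0.

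The paralogs were compared through their ratios, since they come from different chromosomes. The log2 ratio of hsa-miR-23a minus that of hsa-miR-23b was -0.019 (95% range -0.48 to 0.44) at 2 h and 0.059 (-0.39 to 0.51) at 4 h. For hsa-miR-27a minus hsa-miR-27b the difference was 0.031 (-0.41 to 0.47) at 2 h and 0.12 (-0.32 to 0.55) at 4 h. None of these lay beyond the error, and the ranges leave room for differences up to 0.55 on the log2 scale. At 4 h the chromosome 19 paralog had the larger ratio in both pairs, but with normexp the differences were -0.030 for the miR-23 pair and -0.085 for the miR-27 pair. At 2 h the miR-27 difference was 0.34 with normexp and 0.15 with the mean of all spots. Between the control arrays, the difference was -0.00047 for the miR-23 pair and -0.11 for the miR-27 pair.

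The control arrays, which held no berberine, show how far the members differ without it. The log2 ratio of 4 h over 2 h was -0.019 for hsa-miR-23a, -0.019 for hsa-miR-23b, -0.16 for hsa-miR-24, -0.22 for hsa-miR-27a and -0.11 for hsa-miR-27b, each with an SE of 0.14 to 0.17. All 5 were below 0 with this scaling and 0 of the 5 beyond the error, while of 219 miRNAs 6.39% were lower beyond the error, 0.457% were higher, 2.28% were past 2-fold and 22.8% were above 0. With scaling to the median of the arrays, the median of the members was 0.097 here. Time and array cannot be told apart in this comparison.

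Between the berberine arrays, 5 of the 5 members were higher at 4 h than at 2 h with this scaling, where 59.4% of 197 miRNAs were. With normexp 4 were, with hsa-miR-27a at -0.14. With the 75th percentile that also counts undetected miRNAs 0 were, but at 2 h it divides by the value written for undetected miRNAs. The log2 ratio of 4 h over 2 h was 0.37 (SE 0.17) for hsa-miR-23a, the 1 member beyond the error, 0.30 (SE 0.16) for hsa-miR-23b, 0.21 (SE 0.15) for hsa-miR-27b, 0.18 (SE 0.17) for hsa-miR-27a and 0.11 (SE 0.14) for hsa-miR-24. For hsa-miR-23a normexp gave 0.19 and scaling with only miRNAs above the median signal gave 0.27, neither beyond the error at the same SE. Neither of its probes was beyond its own error at 0.40 (SE 0.23) and 0.36 (SE 0.21). Of all miRNAs, 4.57% were higher beyond the error, 15.2% were lower and 3.05% were past 2-fold, and 0 members were past 2-fold. The ratio of berberine over control was below 0 at 2 h and above 0 at 4 h for 5 of the 5 members, which was so for 48.7% of the 197 miRNAs.

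Both times were also fitted together with limma over the 197 shared miRNAs, with treatment and time point as terms. The times took the place of replicates, with 1 degree of freedom for the residual. That residual is the change of the berberine effect between the times, so such a change counts as spread. limma adds a variance estimated over all 197 miRNAs, worth 54.2 degrees of freedom, so the SE of a member is mostly not its own. With only miRNAs above the median signal the SE was 0.087 for hsa-miR-24 to 0.095 for hsa-miR-27a. Of the 5 members, 0 were changed at an adjusted p under 0.05 and 0 at an unadjusted p under 0.05, where 0.508% of all 197 miRNAs were called at the adjusted threshold and 9 of the 197 passed the unadjusted one. The effect of berberine was 0.17 (SE 0.21) for hsa-miR-27a, 0.11 (SE 0.21) for hsa-miR-23a, 0.098 (SE 0.21) for hsa-miR-27b, 0.087 (SE 0.21) for hsa-miR-23b and 0.069 (SE 0.21) for hsa-miR-24, each with an adjusted p of 0.997 in limma. The 95% interval of hsa-miR-27a was -0.24 to 0.59 on the log2 scale. For hsa-miR-23b, hsa-miR-24 and hsa-miR-27b the sign of the effect turned under other scalings, probe summaries or background corrections. The median effect of the members was 0.098 and that of all 197 miRNAs was 0.061.

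The other arms of the 6 hairpins, listed with an asterisk, were mostly undetected. hsa-miR-23a*, hsa-miR-24-2*, hsa-miR-27a* and hsa-miR-27b* were detected on none of the arrays. hsa-miR-23b* was detected on the control array at 4 h alone, with a signal of 2.98 ± 0.853. That detection came from 1 of its 4 probes, whose 4 spots ran from 3.42 to 31.9 with a median of 5.33 and with 1 well above background, and on the berberine array at 4 h, where it was not detected, the median of this probe was 5.49. hsa-miR-24-1*, from the chromosome 9 cluster, was detected on 3 arrays, at 5.00 ± 1.23 and 4.67 ± 1.55 with the control at 2 h and 4 h, and 6.70 ± 1.36 with berberine at 4 h. Its log2 ratio at 4 h was 0.12 (SE 0.56), and it was not detected with berberine at 2 h, on the array with the lowest brightness.
Within 50 kb of the clusters, the gene table places 2 further miRNA genes of the array, MIR181C and MIR181D, beside the chromosome 19 cluster. hsa-miR-181c was not detected on any array. hsa-miR-181d had a signal of 14.1 ± 1.88 and 16.9 ± 2.55 at 2 h, and of 13.4 ± 2.32 and 20.1 ± 2.26 at 4 h, and its log2 ratio of berberine over control was 0.79 (SE 0.29) at 2 h and 0.19 (SE 0.30) at 4 h. With this scaling its ratio was thus the larger at 2 h and those of the members at 4 h, a difference that was not tested. Unscaled, the log2 ratio of hsa-miR-181d was 0.26 at 2 h and 0.59 at 4 h, so the larger was then at 4 h. RefSeq holds 2 other human miRNAs with a seed of the members, hsa-miR-23c and hsa-miR-9985, and neither is on the array under that name.

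The pattern of each member over the 4 arrays was compared with those of the other shared miRNAs by the root mean square difference of scaled log2 signals centred on their mean. The 10 pairs of members had a median difference of 0.065, from 0.029 for hsa-miR-23a and hsa-miR-23b to 0.11 for hsa-miR-23a and hsa-miR-24. Over all pairs of the 98 miRNAs above the median signal the median was 0.089, and over all pairs of the 197 it was 0.18. The miRNAs nearest to a member were hsa-miR-100 for hsa-miR-23a (0.019), hsa-miR-146a for hsa-miR-23b (0.019), hsa-miR-361-5p for hsa-miR-24 (0.0063), hsa-miR-99b for hsa-miR-27a (0.032) and hsa-miR-340 for hsa-miR-27b (0.0050). Next came hsa-miR-374b and hsa-miR-365 for hsa-miR-23a, hsa-miR-101 and hsa-miR-100 for hsa-miR-23b, hsa-miR-29a and hsa-miR-29b for hsa-miR-24, hsa-miR-194 and hsa-miR-185 for hsa-miR-27a, and hsa-miR-106b and hsa-miR-885-5p for hsa-miR-27b. With 4 arrays these likenesses are descriptions only.

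Liver miRNAs fixed as markers were detected on 4 of 4 arrays for hsa-miR-122, hsa-miR-192, hsa-miR-194 and hsa-miR-148a. Over the 4 arrays, the signal was 22.4 to 39.9 for hsa-miR-122, which is abundant in hepatocytes, 821 to 1565 for hsa-miR-192, 498 to 931 for hsa-miR-194 and 1253 to 2313 for hsa-miR-148a. Of 8 markers of blood, endothelium, fibroblasts and muscle, 4 were detected on no array (hsa-miR-223, hsa-miR-126, hsa-miR-1 and hsa-miR-133a), and hsa-miR-145 was detected on all 4. hsa-miR-451, hsa-miR-142-3p and hsa-miR-143 were detected on the berberine array at 4 h alone, with signals of 5.31, 6.13 and 3.95. The summed signal of these 8 markers was 30.8 (control) and 19.7 (berberine) at 2 h, and 29.9 and 57.7 at 4 h. On the first 3 of these arrays it was the signal of hsa-miR-145 alone, which gave 42.3 of the 57.7. The summed signal of the liver markers was 3913 and 2594 at 2 h, and 3258 and 4849 at 4 h. These sums follow the brightness of the arrays, and divided by the 75th percentile of its array the liver sum was 16.1 and 15.3 at 2 h, and 14.4 and 16.3 at 4 h. The sum of the other markers was then 0.127 and 0.117 at 2 h, and 0.133 and 0.194 at 4 h. The 0.194 includes the 3 markers detected on that array alone, and scaling does not remove a difference in detection. Berberine at 4 h had the most human miRNAs detected, 242 against 199 to 235 on the other arrays. The part of these other markers in the ratios of the members at 4 h was not tested. In RNA of a whole culture, fewer cells of a type and less RNA per cell cannot be told apart.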

How the data were processed

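Total RNA of HepG2 cells was hybridised to 1 Agilent array per condition. The authors deposited Feature Extraction 10.7.3.1 output, in which intensity is background-subtracted per spot, summed over the probes of a miRNA and not scaled between arrays. An undetected miRNA is written as 0.1. Per the file headers, the array design names hg18. Coordinates printed here are those of RefSeq. A second deposited table holds only the authors' ratios of berberine over control, and was not used.

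Total signals were taken as log2 minus the 75th percentile of their array over 197 human miRNAs, those that every array detected. Ratios were formed where both arrays detected the miRNA, and SE came from the Feature Extraction errors. With 1 array per condition there was no test at a single time, and calls used the study's 2-fold threshold. limma 3.58.1 in R 4.3.3 was fitted to all 4 arrays with Benjamini-Hochberg adjustment over the 197 miRNAs and was tested on simulated data. Tables were made in Python 3.11.15 (pandas 2.3.3, numpy 2.4.6, scipy 1.17.1) and plots with matplotlib 3.10.9.

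The members, the lists (other arms, shared seeds, miRNA genes within 50 kb, cell type markers) and the rule for named miRNAs, which adds the 3 nearest profiles of each member, were chosen with earlier results of these data known. Alternatives covered scaling, probe summaries, normexp with an offset of 50, filters, limma settings and leaving out each array.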

Additional observations from a re-analysis of the deposited data

Results flagged for a closer look

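For 5 of the 5 members the log2 ratio of berberine over control was below 0 at 2 h and above 0 at 4 h. The ratio at 4 h minus that at 2 h was 0.39 (SE 0.23) for hsa-miR-23a, 0.31 (SE 0.23) for hsa-miR-23b, 0.27 (SE 0.20) for hsa-miR-24, 0.41 (SE 0.24) for hsa-miR-27a and 0.32 (SE 0.21) for hsa-miR-27b. The 95% range of each included 0, and with 1 array per condition the difference was not tested. Of the 197 miRNAs detected on all arrays, 48.7% ran the same way, and the median difference over the 197 was 0.14. Of the 5 members, 4 ran this way with quantile normalization and with the first probe alone. With the mean of all spots 3 did, and with normexp 2. With a 75th percentile that also counts undetected miRNAs 0 did, and all ran the opposite way. That percentile falls on the value written for undetected miRNAs with berberine at 2 h, so it cannot inform on the direction. Under the other 5 alternatives all 5 were below 0 at 2 h and above 0 at 4 h. The brightness of the arrays moved the same way, lowest with berberine at 2 h and highest with berberine at 4 h, and its part in the difference was not tested.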

How the results depend on the processing

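Values are log2. Across 10 alternatives, 0 members were past 2-fold at either time, except for the 75th percentile over all human miRNAs, which at 2 h falls on the value written for undetected miRNAs with berberine. With it 5 were past 2-fold at 2 h, and the median of the members was 5.04 at 2 h, -0.15 at 4 h and 0.39 between the control arrays. Without scaling, medians were -0.59 (2 h) and 0.66 (4 h). Over all alternatives the members' median at 4 h stayed above that of all miRNAs, by 0.076 with quantile normalization to 0.31 with normexp. The paralog differences lay within their error in all alternatives run.

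In limma, 0 members were called under any of 17 alternatives, with adjusted p from 0.444 to 1.0. With all 4 arrays kept, each alternative called 0 or 1 of all the miRNAs tested, so the 0 for the members does not set them apart. Effects of the members were 2.42 to 2.52 where the percentile counted undetected miRNAs too. The effect turned to -0.0055 for hsa-miR-23b and -0.023 for hsa-miR-24 with scaling to the median, and to -0.013 for hsa-miR-23b with quantile normalization. For hsa-miR-24 and hsa-miR-27b it was -0.047 and -0.071 with the mean of all spots, and -0.042 and -0.066 with normexp. Leaving out 1 array was run without the time term, since 3 arrays leave no residual with it. The lone array of an arm is then assumed to vary like the other arm. This gave -0.080 to 0.29 for hsa-miR-23a, -0.061 to 0.23 for hsa-miR-23b, -0.0091 to 0.15 for hsa-miR-24, 0.061 to 0.28 for hsa-miR-27a and -0.0047 to 0.20 for hsa-miR-27b. Without berberine at 4 h the effect was below 0 for hsa-miR-23a, hsa-miR-23b and hsa-miR-27b, and without the control at 4 h for hsa-miR-24. The cause of these changes was not tested. No block on the replicate number could be fitted, because that number is 1 in every condition. The time term of limma pairs the arrays of a time, and dropping it changed no call of a member. The precision is limited by the number of arrays.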
